A study of Mus musculus with 8 samples.

Results

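Noncoding snoRNA host genes were examined in mouse embryonic stem cells (mESCs) after knockdown (KD) of *Eftud2*, a GTPase subunit of the spliceosome. The genes were chosen by name as long noncoding RNA genes that carry small nucleolar RNAs (snoRNAs) in their introns, and comprised *Gas5*, *Snhg1*, *Snhg3*, *Snhg4*, *Snhg5*, *Snhg6*, *Snhg8* and *Snhg12*, 8 of the 55385 genes counted. The rule for membership uses names and not measured values. All 8 were found in the count table, 7 by their symbol and *Snhg4* by the position of its RefSeq gene, and all 8 passed the filter on low counts, which left 17445 genes for testing. The cells were wild-type R1 mESCs grown without feeder cells in N2B27 medium with 2i and LIF, inhibitors and a cytokine that hold mESCs undifferentiated. Lentivirus carrying a short hairpin RNA was applied for 4 hours on each of 2 days, followed by 3 days of puromycin selection. There were 3 biological replicates with shRNA1, which is directed at the 3′ UTR of *Eftud2*, 3 with shRNA2, which is directed at its coding sequence, and 2 with nt-shRNA, a non-targeting control hairpin. All groups therefore share the infection and the selection, and the p-values measure the spread between these replicates of 1 cell line. RNA was selected by its poly(A) tail and sequenced in pairs of 100 bp reads. Fragments were counted on exons without regard to strand.

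snoRNAs are short nucleolar RNAs that guide the modification of ribosomal and spliceosomal RNA. Box C/D snoRNAs guide ribose methylation and box H/ACA snoRNAs guide pseudouridylation. In vertebrates most of them are not transcribed on their own but are trimmed out of introns after the host transcript has been spliced and the lariat debranched. Some hosts encode proteins, often ribosomal proteins or translation factors, while in the noncoding hosts studied here the spliced exons have no established protein product. Several of these spliced RNAs are known to start with a pyrimidine tract, as the terminal oligopyrimidine (TOP) mRNAs of the translation machinery do, and to be degraded by nonsense-mediated decay (NMD), which acts on transcripts whose reading frame ends well before the last exon junction.

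Inside the 8 hosts the annotation places 31 snoRNA genes on the same strand. *Gas5* holds 10, *Snhg1* 8, *Snhg12* 5, *Snhg3*, *Snhg4* and *Snhg5* 2 each, and *Snhg6* and *Snhg8* 1 each. *Snord80* in *Gas5* and *Snora16a* in *Snhg12* are each annotated as 2 overlapping genes, so that *Gas5* has 9 and *Snhg12* 4 separate snoRNA loci. The first snoRNA in the direction of transcription is printed for 7 hosts to show what each host carries (GENCODE M21 sequence on GRCm38, 5′ to 3′). Capitals mark box C (TGATGA) and box D (CTGA) in the C/D snoRNAs and the ACA box in the H/ACA snoRNAs.
*Gm26224* of *Gas5* at chr1:161035394-161035473, plus strand: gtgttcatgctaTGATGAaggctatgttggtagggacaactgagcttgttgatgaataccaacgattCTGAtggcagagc
*Gm25855* of *Snhg1* at chr19:8723993-8724064, plus strand: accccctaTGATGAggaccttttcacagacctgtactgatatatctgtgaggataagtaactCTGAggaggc
*Snora73a* of *Snhg3* at chr4:132352775-132352979, minus strand: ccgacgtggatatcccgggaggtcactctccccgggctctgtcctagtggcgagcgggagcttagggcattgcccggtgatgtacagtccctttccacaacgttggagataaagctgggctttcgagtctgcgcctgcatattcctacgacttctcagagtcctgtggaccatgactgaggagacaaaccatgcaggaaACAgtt
*Snord50b* of *Snhg5* at chr9:88521797-88521868, minus strand: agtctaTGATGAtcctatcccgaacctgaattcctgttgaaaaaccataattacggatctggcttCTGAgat
*Snord87* of *Snhg6* at chr1:9942463-9942549, minus strand: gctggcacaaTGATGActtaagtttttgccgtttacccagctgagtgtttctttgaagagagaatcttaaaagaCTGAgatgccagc
*Snora24* of *Snhg8* at chr3:123507937-123508066, minus strand: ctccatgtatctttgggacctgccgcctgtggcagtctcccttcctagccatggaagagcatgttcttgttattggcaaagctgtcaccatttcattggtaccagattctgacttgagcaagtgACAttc
*Snora16a* of *Snhg12* at chr4:132309464-132309600, plus strand: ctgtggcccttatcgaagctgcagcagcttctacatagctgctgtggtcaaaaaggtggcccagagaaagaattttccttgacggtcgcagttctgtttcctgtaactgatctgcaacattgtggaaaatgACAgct
By these boxes the snoRNA shown is of the C/D class in *Gas5*, *Snhg1*, *Snhg5* and *Snhg6*, and of the H/ACA class in *Snhg3*, *Snhg8* and *Snhg12*.

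The windows around the RefSeq starts are shown because each holds 1 of several related forms of a motif. The motif was not used to choose the genes. Each window runs from 50 bases before to 50 bases after the start of a RefSeq transcript (GRCm38.p6), and capitals mark TATAAA on either strand (TATAAA or TTTATA) or TATATA, which reads the same on both strands.
*Gas5* at chr1:161035116-161035215, plus strand: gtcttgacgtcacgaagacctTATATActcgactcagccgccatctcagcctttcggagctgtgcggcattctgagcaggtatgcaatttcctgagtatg
*Snhg1* at chr19:8723437-8723536, plus strand: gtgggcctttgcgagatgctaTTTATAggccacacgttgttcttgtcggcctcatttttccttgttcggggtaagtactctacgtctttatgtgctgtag
*Snhg3* at chr4:132353637-132353736, minus strand: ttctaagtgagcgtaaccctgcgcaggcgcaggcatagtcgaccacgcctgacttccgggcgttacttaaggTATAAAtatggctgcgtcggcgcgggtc
*Snhg5* at chr9:88522848-88522947, minus strand: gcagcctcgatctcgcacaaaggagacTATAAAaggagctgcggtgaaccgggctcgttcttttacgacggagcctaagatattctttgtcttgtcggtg
*Snhg8* at chr3:123508287-123508386, minus strand: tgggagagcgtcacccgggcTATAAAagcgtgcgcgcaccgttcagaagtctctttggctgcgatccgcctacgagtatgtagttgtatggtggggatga
*Snhg12* at chr4:132308628-132308727, plus strand: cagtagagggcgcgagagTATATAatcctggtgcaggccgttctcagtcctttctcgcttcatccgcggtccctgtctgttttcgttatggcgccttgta
The table of starts held 6 of the 8 members with 7 windows, 2 of them for *Gas5*, where the window with most annotated transcript starts is shown. The motif was in 6 of the 7 windows, against 6.24% of the 32851 windows of the same length over all genes, and all 6 members had at least 1 window with it, against 7.29% of 27025 genes. The window of *Gas5* that is not shown lacks it. In *Gas5*, *Snhg1*, *Snhg5*, *Snhg8* and *Snhg12* the motif began 29, 29, 23, 30 and 32 bases before the start. In *Snhg3* it lay after the RefSeq start, from position 23 onwards, but before the first base of the annotated *Snhg3* transcript printed below. No single form was in all the windows shown: TATAAA was in *Snhg3*, *Snhg5* and *Snhg8*, TATATA in *Gas5* and *Snhg12*, and TTTATA in *Snhg1*. Whether these forms were set before the windows were read is not recorded, so the shares are a description and were not tested. A match of these letters is a description and not a measured binding site.

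A pyrimidine start was defined as a C followed by at least 4 bases that are each C or T at the first position of an annotated transcript. It was found in 13 of the 78 annotated transcripts of the members (16.7%) and in 2.02% of all 141767 transcripts. At least 1 transcript of 7 of the 8 members began in this way, against 4.54% of all 55450 genes, and *Snhg1* had none among 18. The members have 3 to 25 annotated transcripts, and a gene with more transcripts has more chances of such a start. The first 30 bases of 1 such transcript are printed for each of 6 members, with the C and the run of C or T after it in capitals. The *Gas5* transcript has its first 30 bases in more than 1 exon, so no single interval is given for it.
*Gas5* on chromosome 1, plus strand: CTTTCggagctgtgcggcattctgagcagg
*Snhg3* at chr4:132353604-132353633, minus strand: CTCTCTaggcgtcgctctcttggtgtgctt
*Snhg5* at chr9:88522859-88522888, minus strand: CTTTTacgacggagcctaagatattctttg
*Snhg6* at chr1:9944089-9944118, minus strand: CTTTCTCggcagcgccgtagagcgcgagca
*Snhg8* at chr3:123508375-123508404, minus strand: CCCTCgcgcgcaggctcttgggagagcgtc
*Snhg12* at chr4:132308677-132308706, plus strand: CTTTCTCgcttcatccgcggtccctgtctg
*Snhg6* and *Snhg12* begin with the same 7 pyrimidines, and *Gas5* with the first 5 of them. The *Snhg8* transcript printed begins upstream of the start window shown for *Snhg8*. Its pyrimidine start and the motif in that window therefore belong to different annotated 5′ ends. Annotated 5′ ends are not precise start sites, and transcripts of 1 gene share bases.

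The reading frame from the first ATG was followed in 1 spliced isoform of each host, taken as the one with most exons among those without a retained intron. The frame held 23 codons in *Gas5*, 40 in *Snhg1*, 42 in *Snhg3*, 15 in *Snhg4*, 36 in *Snhg5*, 53 in *Snhg6*, 1 in *Snhg8* and 54 in *Snhg12*. More than 50 bases after its stop there were 7 exon junctions in *Gas5*, 5 in *Snhg1*, 3 in *Snhg12*, 2 in *Snhg5* and *Snhg8*, 1 in *Snhg3* and *Snhg6*, and 0 in *Snhg4*. Such a junction was thus present in 7 of 8 members. It was also present in 74.1% of the 1301 other tested spliced noncoding genes, so the members are not set apart by it.

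Because a host is counted on the union of its annotated exons, the counted bases matter for what its level means. *Gas5* (ENSMUSG00000053332) lies at chr1:161034422-161038539 on the plus strand, with 12 exons and 502 spliced bases, but 3760 bases were counted, since 20 of its 25 annotated transcripts retain an intron. *Snhg1* (ENSMUSG00000108414, chr19:8723475-8726443, plus strand) was counted over all 2969 bases of its span, of which 605 are in the spliced isoform. *Snhg12* (ENSMUSG00000086290, chr4:132308623-132311024, plus strand) and *Snhg8* (ENSMUSG00000104960, chr3:123507552-123508404, minus strand) were also counted over their whole span, 2402 and 853 bases. *Snhg5* (ENSMUSG00000097195, chr9:88495268-88523562, minus strand) had 3634 counted bases, 12.8% of its span. *Snhg6* (ENSMUSG00000098234, chr1:9941959-9944118, minus strand) had 1146 counted bases, of which 127 overlap exons of *Mcmdc2* on the other strand. *Snhg4* (ENSMUSG00000117869, chr18:35553371-35558316, plus strand) had 4666, of which 246 are shared with *Gm28285*. Exonic and intronic fragments of these hosts could therefore not be told apart in the counts, except where introns were left out of the counted bases.

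*Snhg3* (ENSMUSG00000085241, chr4:132348014-132353686, minus strand) stands apart in this respect. Of its 986 counted bases 86.3% also belong to other genes, chiefly the antisense gene *Gm17300* and *Rcc1*, which encodes a nucleotide exchange factor for the GTPase Ran. Fragments shared between genes were left out, so only 135 bases could give it a count of its own. It received between 5 and 13 fragments per library, against 574 to 8452 for the other 7 members. Its values below carry that limit.

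**Figure D1:**
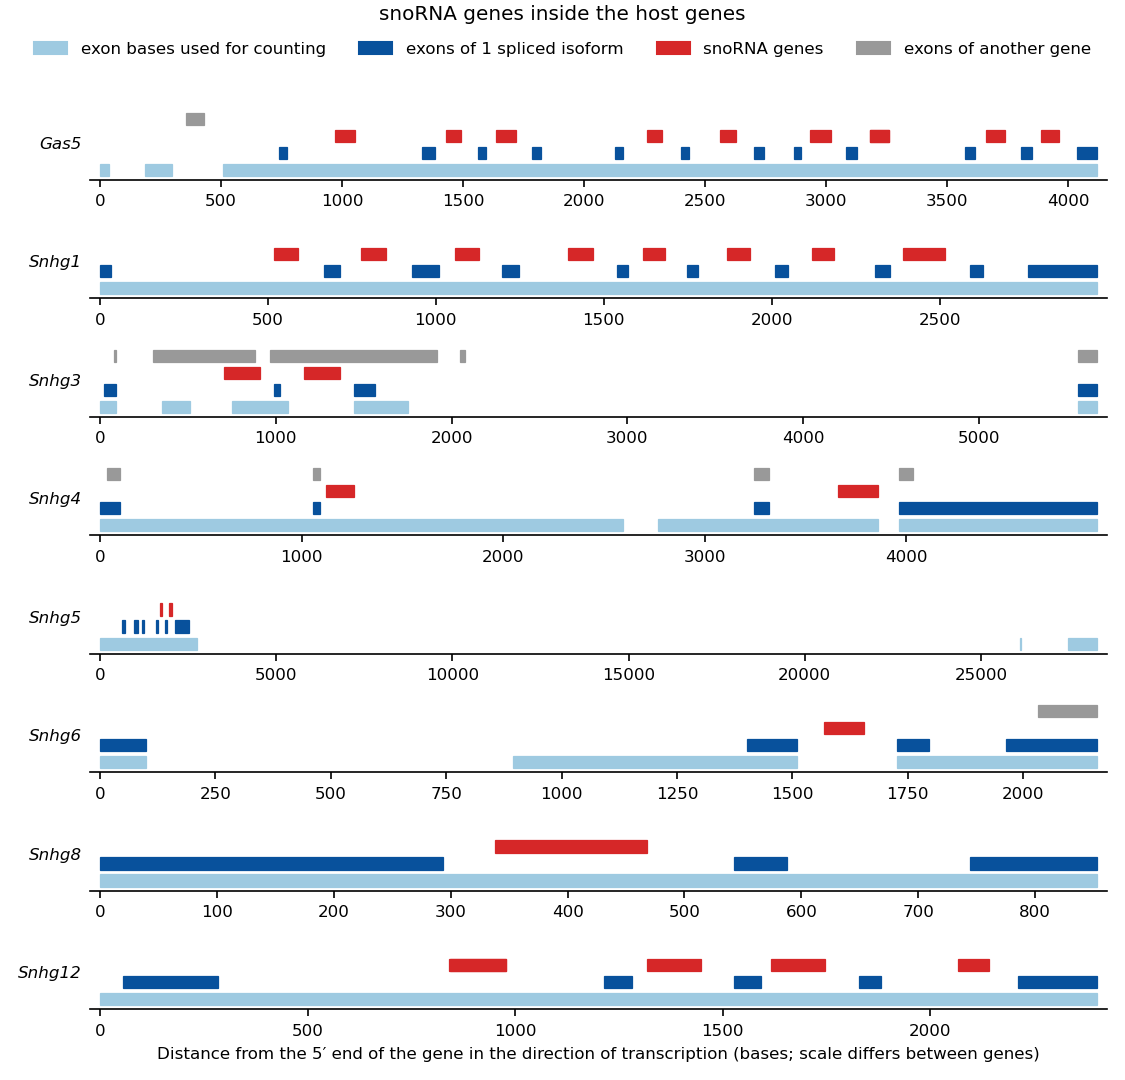
Maps of the 8 host genes from the 5′ end in the direction of transcription, with distance in bases on the x axis and a separate scale for each gene. Light blue blocks are the exon bases used for counting, dark blue blocks the exons of 1 spliced isoform, red blocks the 31 snoRNA genes, and grey blocks exons of another gene. Most snoRNA genes of *Gas5*, *Snhg1*, *Snhg8* and *Snhg12* sit on light blue, that is, inside counted bases of their host.

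Total counts ran from 19569525 to 29871048 per library. The targeted transcript, *Eftud2*, was at 262 and 256 CPM (counts relative to the library's total, scaled with TMM factors) with nt-shRNA, at 232, 229 and 225 CPM with shRNA1 and at 198, 202 and 235 CPM with shRNA2. It was below both controls in every KD library, and the log2 fold change was -0.29 ± 0.068 (SE, adjusted p = 0.00122, edgeR's quasi-likelihood test) with shRNA2 and -0.18 ± 0.068 (adjusted p = 0.0514) with shRNA1, which did not pass the threshold of 0.05. In the counts this is a change of -18.3% with shRNA2 and of -11.7% with shRNA1, and KD names the groups as they are labelled. The defining transcripts of mESCs were present in every library, with *Pou5f1* at 587 CPM or more, and of 9 such genes 4 rose and 2 fell with shRNA1, and 6 rose and 2 fell with shRNA2. Among 7 fibroblast genes, of which 4 passed the filter, *Dcn*, *Lum* and *Col3a1* were at or below 0.05 CPM in all libraries, and *Col1a2* rose from a mean of 0.429 CPM with nt-shRNA to 1.05 and 1.38 CPM with shRNA1 and shRNA2, and *Pdgfrb* fell with shRNA2 from 17.4 to 10.4 CPM. Markers of 2-cell-like cells moved with both hairpins (5 of 5 higher in each comparison with nt-shRNA, *Zscan4c* from 2.64 to 18.5 and 12.2 CPM). Of 4 neural genes 2 rose with each hairpin, *Neurod1* from 0.166 to 1.88 and 8.75 CPM and *Tubb3* from 10.2 to 15.6 and 30.5 CPM. Of 4 tested primitive endoderm genes 0 passed with shRNA1 and 1 fell with shRNA2, and of 3 tested mesoderm genes 1 fell with shRNA1 (*T*, -0.81 ± 0.30) and 1 rose with shRNA2. The part of these markers in the host levels was not tested. In bulk RNA, fewer cells of a type and less RNA per cell cannot be told apart.

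With nt-shRNA the members spanned a wide range of levels. Per kilobase of counted bases, the mean level was 80.4 ± 5.41 CPM per kilobase (SD, n = 2) for *Gas5*, 71.6 ± 6.49 for *Snhg8*, 53.1 ± 3.80 for *Snhg1*, 50.1 ± 0.810 for *Snhg6*, 26.9 for *Snhg5*, 21.6 ± 1.37 for *Snhg12* and 4.56 ± 0.384 for *Snhg4*. Neighbours in this order overlapped within 1 SD for *Gas5* and *Snhg8* and for *Snhg1* and *Snhg6*. *Snhg3* was at 0.259 CPM per kilobase of counted bases and at 1.89 per kilobase of the bases no other gene shares. Per kilobase of the bases no other gene shares, the order of the members was the same. Bases outside the spliced isoform make up 86.6% of the counted bases of *Gas5* and 47.5% of those of *Snhg8*, and their part in the order was not tested.

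*Gas5*, a host named for its rise on growth arrest, was at 317 and 288 CPM with nt-shRNA, at 226, 218 and 239 CPM with shRNA1 and at 282, 312 and 268 CPM with shRNA2. All shRNA1 libraries lay below both controls, while those with shRNA2 overlapped them. *Snhg1*, the host of *Snord22* among others, was at 166 and 150 CPM with nt-shRNA, at 143, 138 and 125 CPM with shRNA1 and at 213, 251 and 187 CPM with shRNA2. The 3 groups of *Snhg1* did not overlap, with shRNA1 lowest and shRNA2 highest.

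*Snhg4* was at 22.5 and 20.0 CPM with nt-shRNA, at 30.3, 30.9 and 24.4 CPM with shRNA1 and at 61.3, 57.7 and 50.7 CPM with shRNA2. It was the member with all KD libraries of both hairpins above both controls. *Snhg5*, the host of the *Snord50* pair, was at 97.8 CPM in both control libraries, at 93.3, 87.5 and 86.2 CPM with shRNA1 and at 123, 148 and 121 CPM with shRNA2. Here too the 3 groups did not overlap, and the order was that of *Snhg1*.

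*Snhg6*, the host of *Snord87*, was at 58.1 and 56.8 CPM with nt-shRNA, at 45.3, 46.9 and 44.8 CPM with shRNA1 and at 60.7, 60.9 and 57.1 CPM with shRNA2. *Snhg8*, the host of *Snora24*, was at 65.0 and 57.2 CPM with nt-shRNA, at 55.1, 49.8 and 58.5 CPM with shRNA1 and at 75.2, 86.8 and 65.3 CPM with shRNA2. The lowest shRNA2 value of *Snhg8* was only just above the higher control. *Snhg12* was at 54.1 and 49.5 CPM with nt-shRNA, at 43.1, 41.0 and 38.3 CPM with shRNA1 and at 56.2, 62.1 and 49.2 CPM with shRNA2. *Snhg3* was at 0.34 and 0.17 CPM with nt-shRNA, at 0.54, 0.39 and 0.32 CPM with shRNA1 and at 0.33, 0.41 and 0.60 CPM with shRNA2, and all its groups overlapped.

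**Figure D2:**
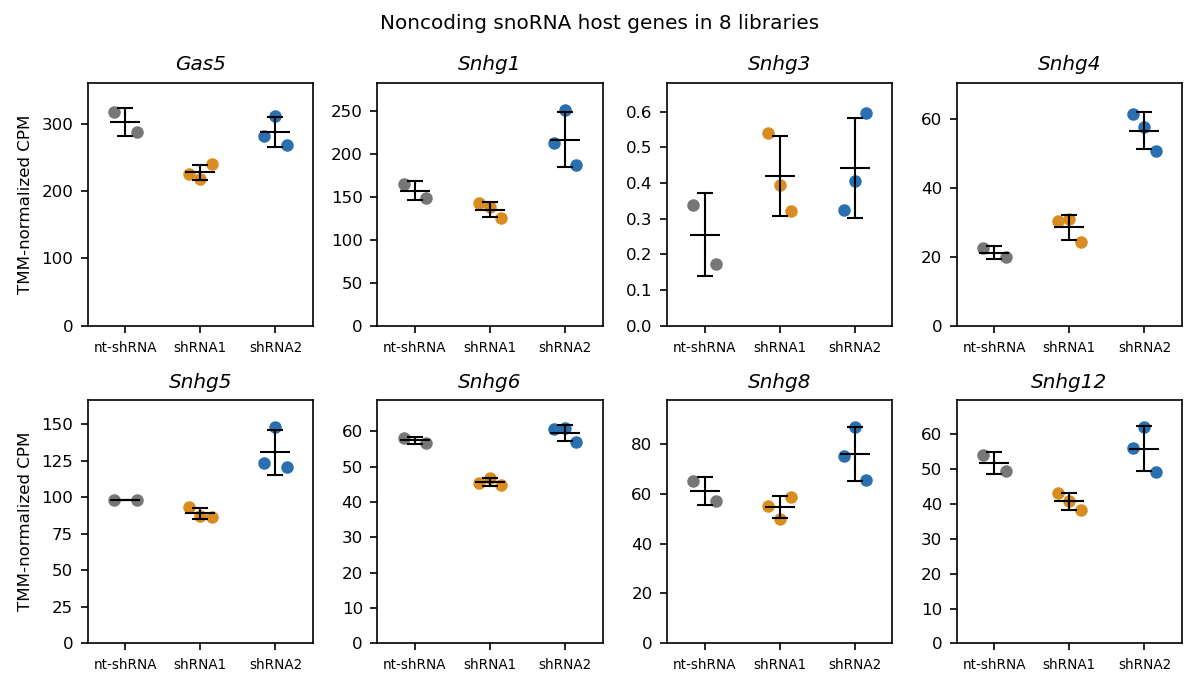
TMM-normalized CPM of each member (y axis, from 0) in the 2 nt-shRNA, 3 shRNA1 and 3 shRNA2 libraries. Points are libraries, and the horizontal mark and bars are the group mean ± SD. In *Snhg1* and *Snhg5* the groups are ordered shRNA1, nt-shRNA, shRNA2 without overlap, and *Snhg4* with shRNA2 stands at 50.7 to 61.3 CPM against 20.0 and 22.5 CPM in the controls.

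The first comparison asked how the hosts responded to shRNA1. *Gas5*, *Snhg6* and *Snhg12* fell and *Snhg4* rose, while *Snhg1*, *Snhg3*, *Snhg5* and *Snhg8* did not pass the test (edgeR's quasi-likelihood test, adjusted over 17445 genes). *Gas5* fell by 0.41 ± 0.070 on the log2 scale (SE, adjusted p = 2.15e-04), to 0.754 of its control level. *Snhg12* fell by 0.35 ± 0.088 (adjusted p = 0.00566) and *Snhg6* fell by 0.33 ± 0.067 (adjusted p = 9.78e-04). *Snhg4* rose by 0.42 ± 0.11 (adjusted p = 0.00575). The fold changes that missed the threshold were -0.22 ± 0.092 for *Snhg1* (adjusted p = 0.0768), -0.16 ± 0.098 for *Snhg8*, -0.14 ± 0.078 for *Snhg5* and 0.69 ± 0.47 for *Snhg3*. When each library was left out in turn, they ran from -0.29 to -0.14 for *Snhg1* and from -0.25 to -0.07 for *Snhg8*. For *Snhg5* they ran from -0.17 to -0.11 and for *Snhg3* from 0.29 to 1.22.

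Read against all tested genes, 3 of 8 members called lower compare with 17.1% of genes called lower, and 1 of 8 called higher with 13.8%. In 5 members every shRNA1 library lay below both controls, against 30.2% of all genes, and in 1 every library lay above, against 26.6%. The median log2 fold change of the members was -0.19, and that of all genes -0.01. By library size alone the members' median was -0.076. Without nt-shRNA replicate 1, 2948 genes were called in place of 5388 and *Snhg12* lost its call (log2 fold change -0.28, adjusted p = 0.0978). *Snhg4* lost its call without nt-shRNA replicate 2 (0.33, adjusted p = 0.0895). When the TMM factors were left out, the median of all genes shifted by 0.11 and the share of calls that were higher from 44.7% to 70.5%, while the calls of the 8 members kept their side of the threshold.

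The second comparison asked the same of shRNA2. *Snhg1*, *Snhg4*, *Snhg5* and *Snhg8* rose against nt-shRNA and no member fell. *Snhg4* was 2.66-fold higher (log2 fold change 1.41 ± 0.11, adjusted p = 2.80e-09). *Snhg1* was 1.38-fold higher (0.46 ± 0.092, adjusted p = 3.05e-04), *Snhg5* 1.34-fold higher (0.42 ± 0.078, adjusted p = 1.51e-04) and *Snhg8* 1.24-fold higher (0.31 ± 0.097, adjusted p = 0.0108). The others gave -0.07 ± 0.070 for *Gas5* (adjusted p = 0.379), 0.05 ± 0.067 for *Snhg6* (adjusted p = 0.525), 0.11 ± 0.088 for *Snhg12* (adjusted p = 0.300) and 0.79 ± 0.47 for *Snhg3* (adjusted p = 0.160).

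The 4 of 8 members called higher compare with 27.2% of all genes, and 0 called lower with 28.7%. At an unadjusted p under 0.05 and with DESeq2 no member was called lower either. Every shRNA2 library lay above both controls in 4 members, against 35.4% of all genes, and in 0 members did every library lie below, against 36.0%. The members' median log2 fold change was 0.36 and that of all genes 0.00. *Snhg8* lost its call without shRNA2 replicate 2 (log2 fold change 0.21, adjusted p = 0.0559) and without nt-shRNA replicate 2 (0.22, adjusted p = 0.159), against 0.31 in the main fit.

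The direct comparison of the hairpins takes no level from the control libraries. In it 7 of 8 members were higher with shRNA2 than with shRNA1 and 0 were lower, against 16.9% of all genes called higher and 18.7% called lower. No member was lower at an unadjusted p under 0.05 or with DESeq2. *Snhg4* differed most, at 0.99 ± 0.091 on the log2 scale (adjusted p = 8.31e-07), followed by *Snhg1* at 0.68 ± 0.083 (adjusted p = 8.20e-06) and *Snhg5* at 0.55 ± 0.070 (adjusted p = 1.22e-05). *Snhg8*, *Snhg12*, *Snhg6* and *Gas5* differed by 0.47 ± 0.088, 0.46 ± 0.080, 0.38 ± 0.061 and 0.33 ± 0.063, with adjusted p-values from 1.15e-04 to 5.11e-04. *Snhg3* gave 0.10 ± 0.40 (adjusted p = 0.868).

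In the 7 members that passed, all 3 shRNA2 libraries lay above all 3 shRNA1 libraries, as in 23.6% of all genes, while 24.1% of all genes lay wholly below and no member did. The members' median difference was 0.46, against 0.00 over all genes. The number of members called was 7 under each of the 15 alternatives. *Eftud2* itself gave -0.11 ± 0.061 in this comparison (adjusted p = 0.164), and its libraries overlapped between the hairpins, so a difference in *Eftud2* between the hairpins was not detected in these counts.

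**Figure D3:**
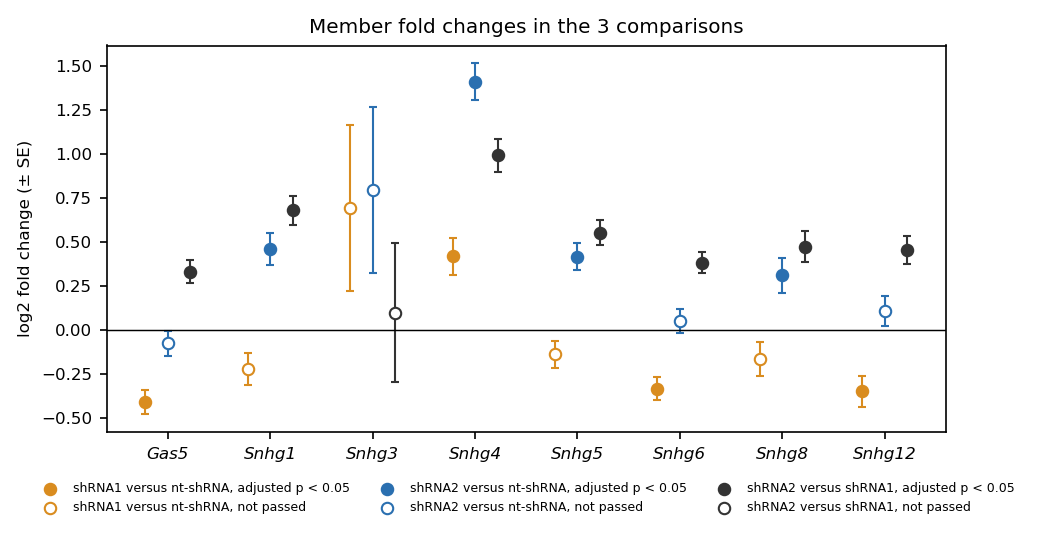
Log2 fold change (y axis) ± SE of each member in the 3 comparisons, from edgeR's fit over 8 libraries. Filled points have an adjusted p under 0.05 and open points do not. The direct comparison of shRNA2 with shRNA1 (black) is above 0 for all members, from 0.33 to 0.99 in the 7 that passed.

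The snoRNAs themselves were almost without counts. Of the 31 snoRNA genes, 30 had 0 counts in all 8 libraries. For 28 of these the whole gene lies inside counted bases of its host, where any fragment would be shared between genes and left out, so a 0 says nothing about the level of the snoRNA. In *Snhg3*, *Snora73a* lies partly inside the counted bases (159 of its 205 bases) and *Snora73b* lies outside them, and both had 0 counts. *Snord87* in *Snhg6* also lies outside the counted bases. It received 14 and 26 fragments with nt-shRNA, 14, 12 and 13 with shRNA1 and 20, 30 and 27 with shRNA2. It was higher with shRNA2 than with shRNA1 (log2 fold change 1.08 ± 0.30, adjusted p = 0.00952), and against nt-shRNA it gave 0.70 ± 0.31 (adjusted p = 0.0621) and, with shRNA1, -0.37 ± 0.35 (adjusted p = 0.445). Per 1000 fragments of *Snhg6* there were 9.03 and 16.0 with nt-shRNA, 13.9, 12.6 and 10.3 with shRNA1 and 15.3, 22.2 and 21.7 with shRNA2. The controls overlap both hairpins in this ratio, to which no test was applied. Fragments of unspliced *Snhg6* RNA and of *Snord87* cannot be told apart in these counts.

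Genes that overlap or adjoin the hosts were read as a check on the unstranded counts. They were chosen by position, within 1500 bases, after the counts had been seen. *Prss12*, 954 bases from *Snhg8*, was at or below 0.32 CPM in every library and was not tested. *Slc3a2*, a subunit of amino acid transporters that starts 105 bases from *Snhg1* on the other strand, was at 479 and 403 CPM with nt-shRNA, at 277, 242 and 321 CPM with shRNA1 and at 225, 237 and 226 CPM with shRNA2. It fell with shRNA2 (-0.94 ± 0.089, adjusted p = 5.18e-08), where *Snhg1* rose. With shRNA1 it also fell (-0.65 ± 0.089, adjusted p = 2.20e-05). *Mcmdc2*, antisense to the end of *Snhg6*, fell with shRNA1 (-0.51 ± 0.15, adjusted p = 0.0124), as *Snhg6* did, and with shRNA2 (-1.19 ± 0.16, adjusted p = 3.30e-06), from a mean of 6.70 to 4.69 and 2.94 CPM. *Trnau1ap*, 738 bases from *Snhg12*, fell with shRNA1 (-0.30 ± 0.064, adjusted p = 0.00140), as *Snhg12* did, and with shRNA2 (-0.48 ± 0.064, adjusted p = 4.12e-06). *Zbtb37*, whose span overlaps that of *Gas5* without shared exon bases, gave 0.15 ± 0.098 with shRNA1 (adjusted p = 0.259) and rose with shRNA2 (0.33 ± 0.097, adjusted p = 0.00798). *Gm28285*, which shares exons with *Snhg4*, stayed at means of 1.11 to 1.37 CPM in the 3 groups. *Gm17300*, antisense to *Snhg3*, rose with shRNA1 from 8.88 to 12.1 CPM (0.44 ± 0.13, adjusted p = 0.0117) and with shRNA2 to 18.6 CPM (1.06 ± 0.12, adjusted p = 7.33e-07), and *Rcc1* gave -0.09 ± 0.064 (adjusted p = 0.319) and 0.01 ± 0.064 (adjusted p = 0.914). Whether fragments of *Gm17300* bear on the few counts of *Snhg3* was not tested.

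Other genes named as noncoding hosts were taken from a list of 14, of which 13 were matched and tested. In the annotation used here *Snhg10* and *Snhg20* hold no snoRNA gene and *Snhg11* is protein-coding, which leaves 10 noncoding genes with a snoRNA gene inside. With shRNA1 0 rose and 4 fell, with shRNA2 5 rose and 4 fell, and 7 were higher and 2 lower with shRNA2 than with shRNA1, with medians of -0.14, -0.06 and 0.43. Of the 10, 0 rose and 3 fell with shRNA1, 3 rose and 3 fell with shRNA2, and 5 were higher and 1 lower in the direct comparison, with medians of -0.19, -0.07 and 0.40. *Dancr* rose with shRNA2 from 7.99 to 17.1 CPM (1.09 ± 0.14, adjusted p = 1.56e-06), *Snhg10* from 0.851 to 3.09 CPM (1.86 ± 0.33, adjusted p = 8.12e-05), *Snhg20* from 17.9 to 26.6 CPM, *1810032O08Rik*, also known as *Snhg16*, from 24.5 to 35.6 CPM and *Snhg17* from 81.8 to 105 CPM. *Zfas1* and *Snhg15* were like *Gas5* in that they fell with shRNA1 (-0.52 ± 0.072 and -0.39 ± 0.10) and did not pass the test with shRNA2 (-0.09 ± 0.072 and 0.19 ± 0.10). *Epb41l4aos* fell with both hairpins, from 41.7 to 24.8 and 27.4 CPM, as did *Snhg11*, from 67.1 to 56.6 and 47.3 CPM. *Snhg14* and *Rian*, long imprinted transcripts that carry arrays of snoRNAs, fell with shRNA2, by 0.43 ± 0.10 and by 0.22 ± 0.083. *Snhg9* and *Snhg18*, at or below 1.04 CPM in every library, passed no test. For these and the sets below, 13.8% of all tested genes were called higher and 17.1% lower with shRNA1. With shRNA2 the shares over all tested genes were 27.2% and 28.7%, and in the direct comparison 16.9% and 18.7%.

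Hosts were also found by position alone. Of the tested genes annotated as noncoding with a snoRNA gene inside their span on the same strand, members left out, there were 23, of which 10 are also on the list above. They include *Cct6a*, which is known as a protein-coding gene and stands on the list of protein-coding hosts. With shRNA1 1 rose and 4 fell, with shRNA2 10 rose and 4 fell (43.5% and 17.4%), and 11 were higher and 1 lower in the direct comparison (47.8% and 4.35%). Their medians were -0.04, 0.28 and 0.38, so with shRNA2 the median had the opposite sign to that of the list. Among 223 protein-coding genes with such a snoRNA gene, 35 rose and 62 fell with shRNA1, 68 rose and 69 fell with shRNA2, and 63 were higher and 25 lower in the direct comparison, with medians of -0.02, 0.02 and 0.04. With shRNA2 the 223 thus gave 30.5% higher and 30.9% lower, near the 27.2% and 28.7% of all tested genes. These sets were formed after the counts had been seen and were not tested.

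Of 47 protein-coding hosts on a list that holds many ribosomal protein genes, 3 rose and 32 fell with shRNA1, 9 rose and 26 fell with shRNA2, and 14 were higher and 0 lower with shRNA2 than with shRNA1, with medians of -0.30, -0.19 and 0.03. Of the 47, 46 are also among the 223 hosts found by position. *Dkc1*, which encodes the pseudouridine synthase of H/ACA particles, fell with shRNA1 (-0.70 ± 0.065, adjusted p = 3.37e-07) and with shRNA2 (-0.81 ± 0.065, adjusted p = 6.71e-09), whereas *Hspa8*, a chaperone gene, and *Eif4g2*, a translation factor gene, rose with shRNA2 (0.98 ± 0.093 and 0.86 ± 0.075). A list of 55 translation genes with a TOP start was meant to hold no hosts, but *Rps3a1*, *Rps13*, *Rps16* and *Rpl6* have an annotated snoRNA gene inside. Without these 4, 0 of 51 rose and 48 fell with shRNA1, and 2 rose and 46 fell with shRNA2. In the direct comparison 1 of 51 was higher and 0 were lower. Of all 55, 0 rose and 52 fell with shRNA1, and 2 rose and 49 fell with shRNA2. In the direct comparison 1 of the 55 was higher and 0 were lower. *Fau*, *Rpl36* and *Rps18*, which encode ribosomal proteins, gave -0.78 ± 0.082, -0.87 ± 0.093 and -0.64 ± 0.075 with shRNA2. Medians of the 51 were -0.40 with shRNA1 and -0.34 with shRNA2, so with shRNA2 their median and that of the members had opposite signs.

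Transcripts of the snoRNA and NMD machinery were counted as well, and with shRNA2 27.2% of all tested genes were called higher and 28.7% lower. Of 4 genes of the C/D core 3 rose with shRNA2, among them *Nop56* (0.38 ± 0.060, adjusted p = 2.55e-05), *Nop58* (0.40 ± 0.068) and *Snu13* (0.20 ± 0.059), and 0 passed with shRNA1. Of 4 genes of the H/ACA core *Nop10* (0.39 ± 0.071) and *Gar1* (0.28 ± 0.080) rose with shRNA2 and *Dkc1* fell, while with shRNA1 *Dkc1* fell and the other 3 did not pass. Among 16 genes of snoRNA particle assembly and debranching 10 rose and 0 fell with shRNA2, those with the smallest adjusted p being *Tgs1*, the cap hypermethylase (0.50 ± 0.068), *Phax* (0.47 ± 0.082) and *Rpap3* (0.38 ± 0.071). With shRNA1 2 rose and 1 fell.

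Of 12 NMD factors 5 rose and 2 fell with shRNA2, with *Smg5* at 0.56 ± 0.079, *Upf3a* at 0.53 ± 0.070 and *Dhx34* at -0.85 ± 0.10. With shRNA1 0 rose and 1 fell, *Dhx34* at -0.34 ± 0.098. Of 9 genes of the exon junction complex 6 rose and 1 fell with shRNA2, with *Magohb* at 0.68 ± 0.10, *Magoh* at 0.40 ± 0.070 and *Eif4a3* at 0.38 ± 0.068. With shRNA1 1 rose, *Magohb* at 0.39 ± 0.10, and 1 fell. Of 9 coding transcripts described as NMD substrates 0 rose and 7 fell with shRNA2, and 0 rose and 6 fell with shRNA1, with medians of -0.83 and -0.65. The members' medians were 0.36 and -0.19, so the signs differed with shRNA2 and not with shRNA1, and no test compared the sets. *Gadd45b* gave -1.73 ± 0.11, *Gadd45a* -1.40 ± 0.11 and *Gadd45g* -3.28 ± 0.26 with shRNA2. The *Gadd45* genes are also known as genes that stress signals induce.

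Long noncoding RNAs not known as hosts gave 10 higher and 2 lower of 15 with shRNA2, 3 higher and 2 lower with shRNA1, and 8 higher and 2 lower in the direct comparison. *Neat1*, the scaffold of paraspeckles, was at 40.1 CPM with nt-shRNA and 76.5 CPM with shRNA2 (0.93 ± 0.10, adjusted p = 3.86e-07), *Tug1* at 47.9 and 95.9 CPM (1.00 ± 0.12) and *Mir124a-1hg* at 1.16 and 3.86 CPM (1.73 ± 0.24). Their median was 0.19 with shRNA1, 0.47 with shRNA2 and 0.27 in the direct comparison, against -0.19, 0.36 and 0.46 for the members, so the signs differed with shRNA1.

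**Figure D4:**
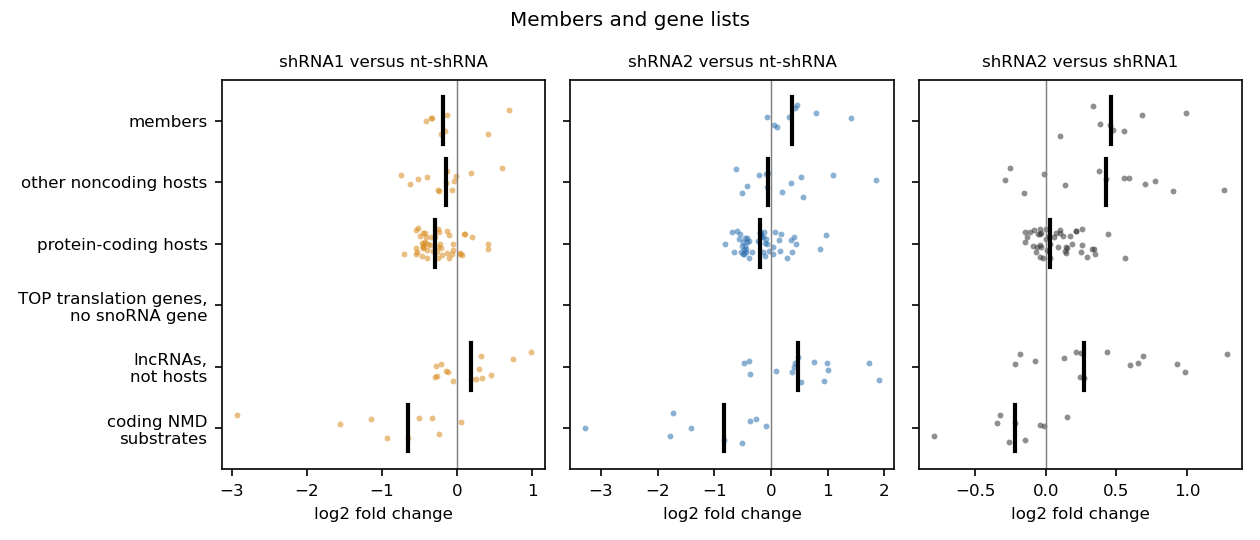
Log2 fold change (x axis) of each tested gene of the members and of gene lists in the 3 comparisons. Points are genes and black bars are list medians. The row of TOP translation genes is drawn without points or a bar, and their values are given in the text. With shRNA2 the members' median is 0.36. In the direct comparison the medians are 0.46 for the members and 0.03 for protein-coding hosts. For the 13 listed other noncoding hosts, of which 2 hold no annotated snoRNA gene, it is 0.43.

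Across the 8 libraries the mean of the members' standardised log levels was followed most closely by *Rabggtb* (Pearson's r = 0.993), *Hmgn1* (0.986), *Eif2s3x* (0.985), *Ran* (0.984) and *Slc25a38* (0.983), the 5 genes with the highest r among all tested. The libraries form 3 groups, so these values describe likeness of group levels and carry no test. *Rabggtb*, a subunit of a prenyltransferase and itself a host with 3 annotated snoRNA genes, was at a mean of 178 CPM with nt-shRNA, 155 with shRNA1 and 211 with shRNA2. The other 4 have no annotated snoRNA gene on their strand.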

How the data were processed

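The authors aligned paired reads with STAR (mm10, GRCm38) and counted fragments on the exons of each GENCODE M24 gene with featureCounts 1.6.2, per the file headers and labels. The deposited values are raw counts for 8 libraries, without normalization, and the deposited gene length was used only to check the counted bases of the members. Strand was ignored, and fragments shared between genes were dropped. Symbols came from GENCODE M21 for 55144 of 55385 genes, and start windows from RefSeq (GRCm38.p6). The counts column of every library was used, and 0 columns were left out.

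The test was edgeR's (version 4.0.16, with limma 3.58.1, under R 4.3.3; filterByExpr with a minimum count of 10, TMM, glmQLFit and glmQLFTest with 1 coefficient per group over all 8 libraries). p-values were adjusted by the Benjamini-Hochberg method over 17445 genes, with a threshold of 0.05, and the standard error was derived from the F statistic. The code was tested on simulated data. Levels are TMM-scaled CPM. The authors used DESeq2, here an alternative (version 1.42.0), beside other scalings, filters, a replicate block, fits with only the groups compared, and each library left out. Total counts were 19569525 to 29871048 per library, where 3 counts correspond to 0.100 to 0.153 CPM. No library repeats another of its group (chi-square per gene 3.01 to 11.8). Tables and figures used Python 3.11.15, pandas 2.3.3 and matplotlib 3.10.9.

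Named genes are the 8 members, the tested genes of the list of other noncoding hosts, 3 genes with the smallest adjusted p with shRNA2 from the other lists, *Snord87*, *Eftud2* and the 5 genes most like the members. Neighbouring genes, some marker genes and hosts found by coordinates were added after their values were seen. The members and lists were chosen with earlier results of these data known. Splicing, qPCR and zebrafish data were not analysed here.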

Additional observations from a re-analysis of the deposited data

Results flagged for a closer look

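For 5 members the fold changes of the 2 hairpins against nt-shRNA had opposite signs, and the direct comparison of shRNA2 with shRNA1 passed the test (edgeR, adjusted over all genes tested). The share of all tested genes that meet both conditions was not counted, so the 5 cannot be read against it. In the direct comparison alone, 16.9% of all genes were called higher and 18.7% lower. The log2 difference was 0.68 for *Snhg1*, 0.55 for *Snhg5*, 0.38 for *Snhg6*, 0.47 for *Snhg8* and 0.46 for *Snhg12*. In each of the 5, all 3 shRNA2 libraries were above all 3 shRNA1 libraries, as in 23.6% of all tested genes. The 5 had been picked for passing this comparison, so the lack of overlap is not separate evidence. Not every side of these contrasts passed on its own against nt-shRNA: *Snhg6* and *Snhg12* passed with shRNA1 alone, and *Snhg1*, *Snhg5* and *Snhg8* with shRNA2 alone. The groups held too few libraries for the search for single outlying samples.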

How the results depend on the processing

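No member changed direction past the threshold under any of the 15 alternatives, and the 7 calls of the direct comparison of shRNA2 with shRNA1 held in all of them. With shRNA1 against nt-shRNA, the median log2 fold change of the members (-0.19) was -0.076 by library size alone and lay between -0.27 and -0.14 when each library was left out in turn, and the number of genes called lay between 2948 and 5903, the lowest without nt-shRNA replicate 1. *Snhg1* passed with shRNA1 without a filter (adjusted p = 0.00707), with only the groups compared (0.0350), and without shRNA2 replicate 2 (0.0226) or 3 (0.0310). Its log2 fold change with shRNA1, -0.22 in the main fit, was -0.14 without nt-shRNA replicate 1 (adjusted p = 0.437). By library size alone it was -0.10 (adjusted p = 0.393). The cause of these shifts was not tested. By library size alone the mean CPM moved by more than the spread between replicates for *Snhg5* with nt-shRNA (92.7) and for *Snhg6* with shRNA1 (46.8) and nt-shRNA (54.4), and higher calls made up 58.9% in place of 48.7% of all calls with shRNA2 against nt-shRNA. *Snhg3*, with 5 to 13 counts per library, was left untested by the filter in 3 or 4 of the 15 alternatives and ranged from -0.09 to 0.27 in the direct comparison when each library was left out. Same-numbered libraries did not deviate together (correlations of -0.03 to 0.07 over 7 pairs) and were not treated as pairs, while whether a number marks a shared day is not given in the sources used here. With the replicate block 6018, 10034 and 6518 genes were called with shRNA1, with shRNA2 and in the direct comparison (5388, 9758 and 6204 without it), and the members called stayed at 4, 4 and 7. An alternative that leaves out the snoRNA gene with most counts could give no value, since *Snord87* alone had counts. With 3 or 2 libraries a group, small changes of *Snhg3* were not detectable at this depth.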
